A study of Mus musculus with 6 samples.

Results

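The MS4A family was examined in microglia sorted from the lumbar spinal cord of SOD1 G93A mice and of their WT littermates. The members were the 8 genes Ms4a1, Ms4a4b, Ms4a4c, Ms4a4d, Ms4a6b, Ms4a6c, Ms4a6d and Ms4a7, taken by symbol, and every probe set that the array's annotation assigns to 1 of these symbols alone was used. This gave 16 probe sets, of 45037 probe sets tested in all. SOD1 G93A mice (B6SJL background) bear many copies of a mutated human SOD1 gene from familial amyotrophic lateral sclerosis (ALS), which the WT mice lack. Both groups were males of 90 days, an early symptomatic age, and no mouse was treated. For every array the CD11b-positive cells of at least 6 mice were combined, and their RNA was hybridised to 3 whole-genome Affymetrix arrays per genotype, so that replicates are pools and p-values measure the spread between pools.

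MS4A proteins are small proteins that cross the membrane 4 times, and their genes lie side by side in a cluster. The best known is CD20, encoded by Ms4a1, the B cell antigen targeted by therapeutic antibodies. Other members are expressed by myeloid cells: mouse Ms4a6c and Ms4a6d by monocytes and macrophages, and Ms4a7 by macrophages, including those at the borders of the central nervous system. In humans, variants in the MS4A cluster are associated with the risk of Alzheimer's disease and with the level of soluble TREM2, a microglial receptor.

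Values are log2 signals, so that a difference of 1 is a 2-fold change, and each fold change is SOD1 G93A minus WT. The test was limma, in which each probe set's variance is drawn towards that of the rest, and a probe set passed when its Benjamini-Hochberg adjusted p, taken over all probe sets, was under 0.05. Array medians ranged over 5.93 to 5.97 on the log2 scale. The first principal component, with 46.4% of the variance, separated the genotypes, and the second (28%) separated both arrays numbered 1 from the rest. The Gapdh control probe sets for the 3' and 5' ends of the transcript differ more where RNA copies are short. Their log2 difference, 3' minus 5', was 4.12 ± 0.59 in SOD1 G93A and 4.89 ± 0.11 in WT arrays (SD, n = 3 each), and the group difference of -0.77 had p = 0.1 in an exact permutation test (two-sided), which cannot go lower with 3 arrays against 3. Itgam, which encodes the CD11b used for the sort, had a fold change of -0.02 (standard error 0.15, adjusted p = 0.956). The microglial genes Cx3cr1, Tmem119 and P2ry12 had mean log2 signals of 13.58, 12.16 and 11.37 in SOD1 G93A arrays, against 13.62, 12.24 and 11.66 in WT arrays. The Sod1 probe sets are designed on mouse sequence and do not check the transgene.

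Of the 16 MS4A probe sets, 3 rose and 1 fell in SOD1 G93A microglia, while the remaining 12 did not pass. Ms4a7 was 1.74-fold higher, Ms4a6c 1.67-fold and Ms4a6d, by 1 of its 3 probe sets, 1.67-fold, while 1 of the 2 probe sets of Ms4a4b, whose signal lay close to background in both genotypes, was lower by an uncertain amount. Over all probe sets 2.71% rose and 1.93% fell, together 4.64%. Taking each gene by its brightest probe set, 2 of the 8 members rose and 1 fell, against 3.53% and 2.08% of all genes. At an unadjusted p under 0.05, 4 of the 16 were higher and 3 lower, against 10.1% and 9.32% of all probe sets. The share in either direction was 19.5%. With the larger fold change that the study's methods require in addition, 0 of the 16 were higher and 1, of Ms4a4b, was lower. Over all probe sets 2.4% met both. The median log2 fold change was 0.01 over the 16 probe sets and 0.003 over all probe sets. In 6 of the 16 the arrays of the genotypes did not overlap, 4 higher and 2 lower, against 24.7% of all probe sets (13.4% higher and 11.3% lower).

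**Figure D1:**
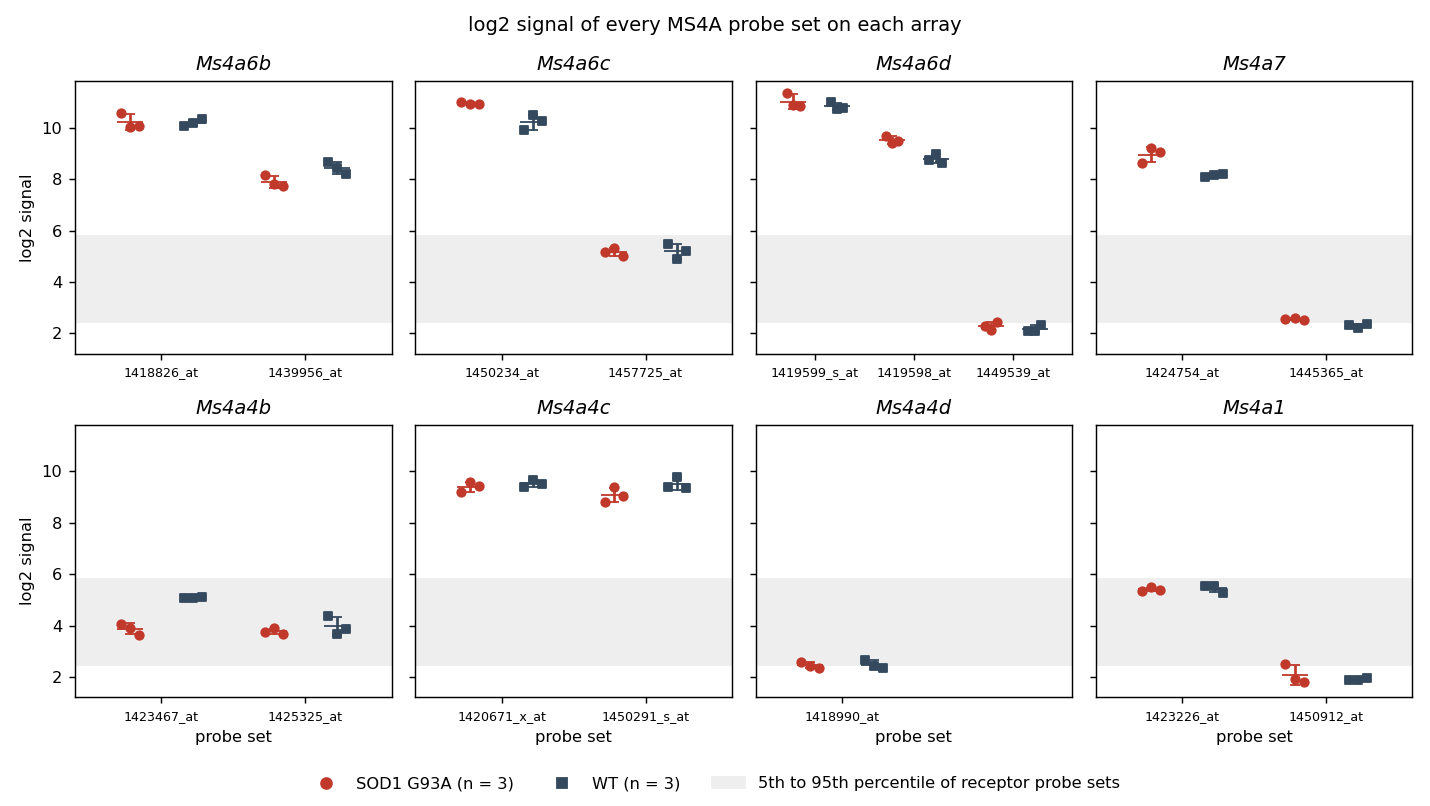
log2 signal of the 16 MS4A probe sets on each array, with SOD1 G93A arrays as red circles and WT arrays as dark squares, and with the mean and SD of the 3 arrays as bars. The grey band runs from the 5th to the 95th percentile of 81 probe sets of chemosensory receptors (2.46 to 5.80). Ms4a4d and Ms4a1, Ms4a4b, and the dimmer probe sets of Ms4a6c, Ms4a6d and Ms4a7 lie in or below the band.

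The table has no detection calls, so the signals were set beside those of 81 probe sets of odorant, vomeronasal and bitter taste receptors, which sorted microglia would not be expected to use. The receptors' mean log2 signals had a median of 3.99 and a 95th percentile of 5.80. Both probe sets of Ms4a4c and of Ms4a6b, 2 of Ms4a6d and 1 each of Ms4a6c and Ms4a7 lay above every receptor. The other 8 lay below the 95th percentile of the receptors, namely all probe sets of Ms4a1, Ms4a4b and Ms4a4d and the dimmer ones of Ms4a6c, Ms4a6d and Ms4a7. For these the size of a change is uncertain, and signals of different probe sets are not compared with each other.

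All 8 members lie on chromosome 19, within a cluster of 21 Ms4a genes that spans 679 kb (chr19:10962289-11640851, GRCm38.p6). RefSeq promoters were found for 6 of the 8 members. The 250 bases before the start site are shown for Ms4a7, Ms4a6c and Ms4a4b, which had probe sets that passed, and for Ms4a6b and Ms4a4c, the neighbours most like Ms4a6c and Ms4a4b in this stretch, none of whose probe sets passed. Sequences are from RefSeq (GRCm38.p6), 5' to 3' in the direction of the gene, and capitals mark the letters GGAAGT, or ACTTCC on the other strand, a core bound by ETS factors such as PU.1 of myeloid cells.
Ms4a7 (chr19:11336147-11336396, minus strand): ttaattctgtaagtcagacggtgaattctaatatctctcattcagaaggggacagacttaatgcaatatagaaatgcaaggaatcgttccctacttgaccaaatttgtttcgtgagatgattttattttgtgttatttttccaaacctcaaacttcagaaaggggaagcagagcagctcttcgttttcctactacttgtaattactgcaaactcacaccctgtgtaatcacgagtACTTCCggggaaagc
Ms4a6c (chr19:11469118-11469367, plus strand): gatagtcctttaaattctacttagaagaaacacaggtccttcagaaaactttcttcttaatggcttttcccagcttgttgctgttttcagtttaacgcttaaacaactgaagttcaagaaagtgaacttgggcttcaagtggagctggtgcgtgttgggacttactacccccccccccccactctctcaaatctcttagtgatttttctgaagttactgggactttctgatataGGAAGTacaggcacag
Ms4a6b (chr19:11518309-11518558, plus strand): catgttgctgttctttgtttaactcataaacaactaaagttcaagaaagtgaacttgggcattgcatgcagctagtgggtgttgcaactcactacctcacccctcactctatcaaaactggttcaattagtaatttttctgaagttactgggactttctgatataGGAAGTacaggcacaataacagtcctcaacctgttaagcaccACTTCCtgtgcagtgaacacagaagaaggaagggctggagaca
Ms4a4b (chr19:11443308-11443557, plus strand): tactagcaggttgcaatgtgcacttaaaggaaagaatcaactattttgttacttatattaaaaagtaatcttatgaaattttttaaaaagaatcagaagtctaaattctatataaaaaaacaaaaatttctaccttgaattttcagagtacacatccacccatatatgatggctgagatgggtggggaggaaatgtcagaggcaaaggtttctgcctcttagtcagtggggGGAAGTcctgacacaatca
Ms4a4c (chr19:11407411-11407660, plus strand): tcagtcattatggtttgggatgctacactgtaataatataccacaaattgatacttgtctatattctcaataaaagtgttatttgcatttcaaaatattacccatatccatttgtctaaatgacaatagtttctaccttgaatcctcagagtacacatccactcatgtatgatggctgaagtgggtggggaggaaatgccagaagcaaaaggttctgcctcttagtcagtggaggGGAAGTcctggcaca
Ms4a6c and Ms4a6b shared 149 of 175 aligned bases (85.1%) and Ms4a4b and Ms4a4c 183 of 232 (78.9%). The letters GGAAGT, searched on both strands, were in 6 of the 7 windows of the members, one or more for each of the 6 genes, and in 19.7% of 32851 promoter windows of the same length. Their first base lay 15 bases before the start in Ms4a7, 16 in Ms4a6c, 19 in Ms4a4b, 15 in Ms4a4c, 43 and 85 in Ms4a6b and 221 in Ms4a4d. A match within 50 bases of the start, a distance chosen after the sequences were seen, was in 5 of the 6 genes and in 5.83% of all windows, and neighbours that share sequence are not independent. The second start site of Ms4a7 held no match. The core of the interferon-stimulated response element, GAAA and again GAAA with 2 bases between (2.98% of all windows), and TTCNNNGAA, the element bound by STAT factors (7.02%), were searched on both strands and were in none of the 7 windows. The motifs were chosen with these sequences in view.

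Ms4a7, a gene of macrophages, had log2 signals of 8.63, 9.20 and 9.04 in SOD1 G93A arrays, against 8.10, 8.18 and 8.19 in WT arrays (probe set 1424754_at). Every SOD1 G93A array was above every WT array, and SOD1 G93A replicate 1 was the lowest of its group. The log2 fold change was 0.80 (standard error 0.15, 95% interval 0.46 to 1.14, adjusted p = 0.0226 from limma). The other probe set of Ms4a7, which lies at the bottom of the receptors' range, had 2.55, 2.62 and 2.53 in SOD1 G93A arrays, against 2.33, 2.20 and 2.36 in WT arrays. These did not overlap either, and the fold change of 0.27 did not pass (adjusted p = 0.185). The call of 1424754_at was lost without SOD1 G93A replicate 2 or 3 or WT replicate 2 or 3 (adjusted p = 0.0806, 0.0944, 0.0767 and 0.0824), with fold changes of 0.68 to 0.97 with any 1 array left out. When the Gapdh difference entered the fit as a covariate the fold change was 0.60 (standard error 0.21, adjusted p = 0.239). The Gapdh difference did not overlap between the genotypes (at most 4.63 in SOD1 G93A arrays, at least 4.79 in WT arrays). A fit with this covariate therefore cannot cleanly separate genotype from the Gapdh difference. A call lost in that fit does not show which of them the change follows.

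Ms4a6c, a gene of monocytes and macrophages, had log2 signals of 10.99, 10.92 and 10.94 in SOD1 G93A arrays, against 9.90, 10.48 and 10.26 in WT arrays (probe set 1450234_at). The SOD1 G93A arrays lay close together (SD 0.04), the WT arrays were more spread (SD 0.29), and the groups did not overlap. The log2 fold change was 0.74 (standard error 0.15, 95% interval 0.40 to 1.08, adjusted p = 0.0302 from limma). The other probe set, at a mean signal within the receptors' range, had 5.17 ± 0.16 in SOD1 G93A and 5.19 ± 0.30 in WT arrays (SD, n = 3 each), a fold change of -0.02. The call was lost without SOD1 G93A replicate 1, 2 or 3 or WT replicate 3 (adjusted p = 0.0575, 0.097, 0.102 and 0.0964), with fold changes of 0.58 to 0.87 with any 1 array left out. With the Gapdh covariate it was 0.70 (adjusted p = 0.216).

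Ms4a6d, also a macrophage gene, was measured by 3 probe sets that differed in their fold changes. By 1419598_at its log2 signals were 9.69, 9.40 and 9.50 in SOD1 G93A arrays, against 8.74, 8.98 and 8.64 in WT arrays. The groups did not overlap, and the log2 fold change was 0.74 (standard error 0.13, 95% interval 0.45 to 1.04, adjusted p = 0.0188 from limma). By 1419599_s_at, whose suffix marks probes that can match more than 1 transcript, the signals were 11.33, 10.89 and 10.83 in SOD1 G93A arrays, against 10.98, 10.73 and 10.78 in WT arrays. These overlapped, with a fold change of 0.19 (95% interval -0.16 to 0.53, adjusted p = 0.566). The third probe set, with means of 2.29 in SOD1 G93A and 2.18 in WT arrays, lay below the 5th percentile of the receptors. The call of 1419598_at was lost without SOD1 G93A replicate 2 or 3 or WT replicate 3 (adjusted p = 0.0534, 0.0732 and 0.0806), and the fold change with the Gapdh covariate was 0.80 (adjusted p = 0.135).

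Ms4a6b, the neighbour and close relative of Ms4a6c, had no probe set that passed. By 1418826_at its log2 signals were 10.57, 10.02 and 10.09 in SOD1 G93A arrays, against 10.07, 10.17 and 10.33 in WT arrays. The groups overlapped, and the fold change was 0.03 (95% interval -0.33 to 0.40, adjusted p = 0.942). By 1439956_at the signals were 8.16, 7.81 and 7.72 in SOD1 G93A arrays, against 8.65, 8.43 and 8.19 in WT arrays. These did not overlap, by a margin of 8.19 against 8.16, and the fold change of -0.53 did not pass (95% interval -0.89 to -0.17, adjusted p = 0.102). The probe sequences were not used here, and whether probe sets of these relatives share signal was not tested.

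**Figure D2:**
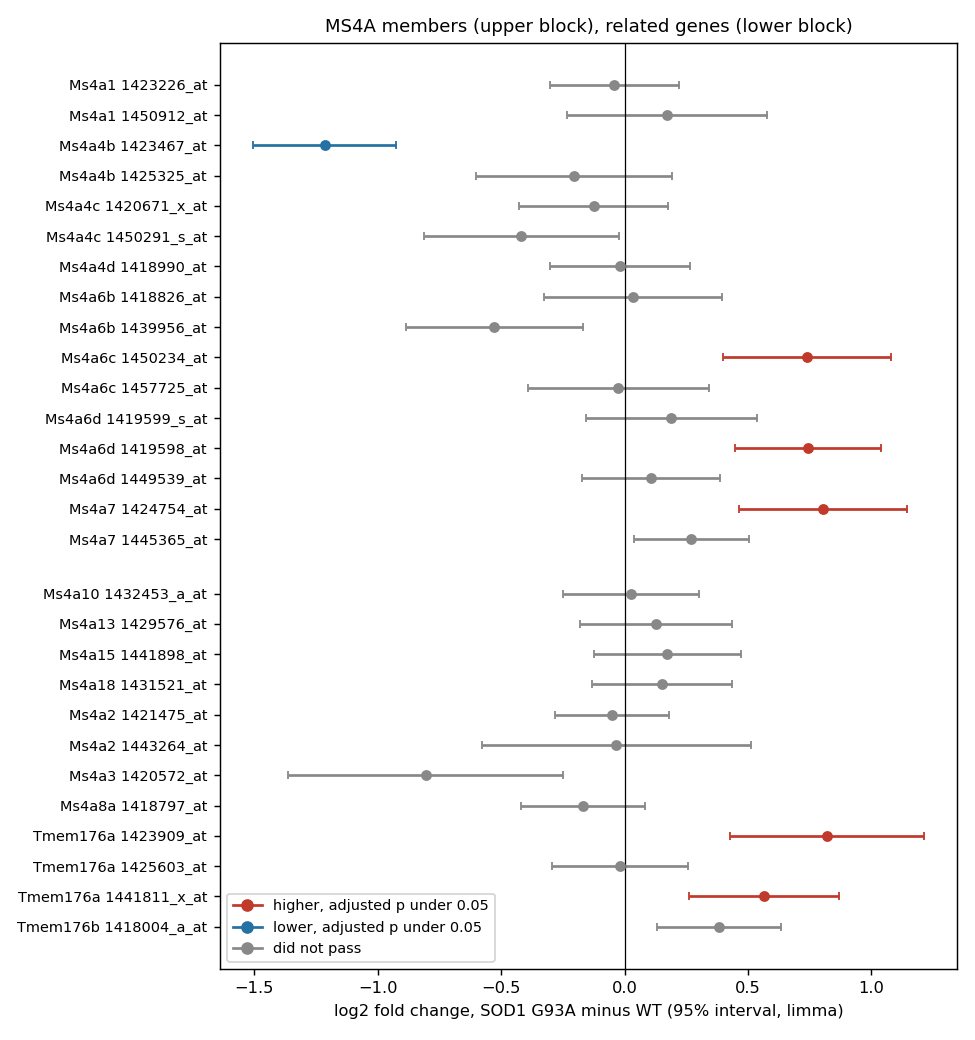
log2 fold change (SOD1 G93A minus WT) with its 95% interval from limma for each probe set of the 8 members, upper block, and of 9 other family members or related genes, lower block. Red marks probe sets that rose, blue those that fell and grey those that did not pass, and among the members only Ms4a6c, Ms4a6d, Ms4a7 (higher) and Ms4a4b (lower) have a probe set that passed.

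Ms4a4b, which mouse T cells and natural killer (NK) cells express, had log2 signals of 4.07, 3.90 and 3.64 in SOD1 G93A arrays, against 5.08, 5.09 and 5.09 in WT arrays (probe set 1423467_at). Both group means lie among the receptors, of which 54.3% were at or above the SOD1 G93A mean and 22.2% at or above the WT mean, so the size of the fall is uncertain. The groups did not overlap and the WT arrays were almost equal. The measured log2 fold change was -1.21 (standard error 0.13, 95% interval -1.50 to -0.92, adjusted p = 0.00279 from limma). It passed with any 1 array left out (highest adjusted p = 0.022), and with the Gapdh covariate it was -0.94 (adjusted p = 0.056). The other probe set of Ms4a4b had 3.76, 3.89 and 3.67 in SOD1 G93A arrays, against 4.38, 3.69 and 3.87 in WT arrays, which overlapped (fold change -0.20, 95% interval -0.60 to 0.19, adjusted p = 0.592).

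Ms4a4c, an interferon-inducible gene of mouse leukocytes, had log2 signals of 9.19, 9.57 and 9.44 in SOD1 G93A arrays, against 9.40, 9.67 and 9.50 in WT arrays by 1420671_x_at. By 1450291_s_at they were 8.80, 9.38 and 9.05 in SOD1 G93A arrays, against 9.38, 9.77 and 9.34 in WT arrays. The groups overlapped by both, and neither passed (fold changes -0.12 and -0.42, 95% intervals -0.43 to 0.18 and -0.81 to -0.02, adjusted p = 0.677 and 0.229). Both names carry a suffix of probes that can match more than 1 transcript. Ms4a4d had means of 2.46 ± 0.12 in SOD1 G93A and 2.48 ± 0.17 in WT arrays (SD, n = 3 each), near the lowest receptors, and did not pass. Ms4a1 had 5.35, 5.49 and 5.39 in SOD1 G93A arrays, against 5.54, 5.53 and 5.28 in WT arrays by its brighter probe set, which overlapped (fold change -0.04, 95% interval -0.30 to 0.22). Its other probe set, with means of 2.08 in SOD1 G93A and 1.91 in WT arrays, was below every receptor.

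**Figure D3:**
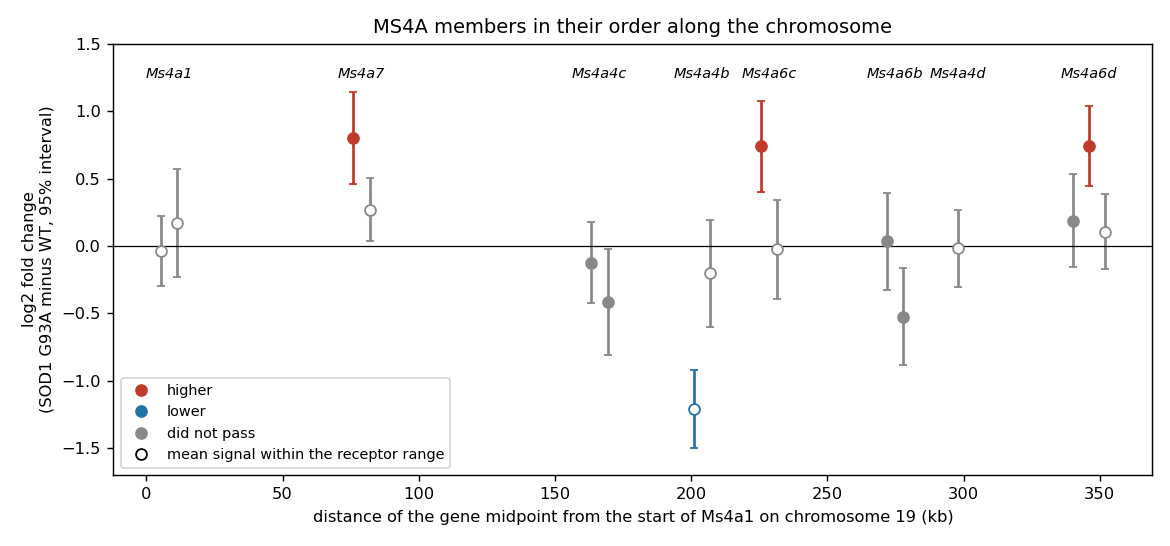
log2 fold change (SOD1 G93A minus WT, 95% interval) of each MS4A probe set against the distance of its gene's midpoint from the start of Ms4a1, in kb. Filled symbols have a mean signal above the 95th percentile of the receptors and open symbols do not, and the probe sets that rose belong to genes separated by genes whose probe sets did not.

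Where a gene had 2 probe sets above the receptors' 95th percentile, the difference between them was compared across the arrays. For Ms4a6d, 1419598_at minus 1419599_s_at was -1.49 ± 0.16 in SOD1 G93A and -2.04 ± 0.26 in WT arrays (SD, n = 3 each), a change of 0.55. For Ms4a6b, 1418826_at minus 1439956_at was 2.33 ± 0.11 in SOD1 G93A and 1.77 ± 0.36 in WT arrays, a change of 0.56. For Ms4a4c the change was 0.29. In all 3 genes the difference did not overlap between the SOD1 G93A and the WT arrays, and the same held for 29.1% of 2894 genes with 2 such probe sets (two-sided exact permutation p = 0.1 for each of the 3, the smallest this design allows, and 0.1 after adjustment over them). These comparisons were made after the values had been seen.

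Other family members and their relatives were mostly near background. Of 9 such genes with 12 probe sets, 2 probe sets rose, both of Tmem176a, and 0 fell, while 5 of the 9 genes lay below the receptors' 95th percentile. Tmem176a and Tmem176b encode related proteins that cross the membrane 4 times. Tmem176a had 11.69, 11.77 and 12.22 in SOD1 G93A arrays, against 10.87, 11.33 and 11.03 in WT arrays by its brightest probe set (fold change 0.82 with a standard error of 0.17, adjusted p = 0.0347), and 0.57 and -0.02 by the 2 others (adjusted p = 0.0497 and 0.96). The call of the brightest was lost with any 1 array left out except SOD1 G93A replicate 1 (highest adjusted p = 0.12), and that of the second with any 1 left out. With the Gapdh covariate the 2 probe sets that rose had 0.41 and 0.32 and did not pass (adjusted p = 0.343 and 0.427). Tmem176b had 12.60 ± 0.12 in SOD1 G93A and 12.21 ± 0.08 in WT arrays (SD, n = 3 each), which did not pass (adjusted p = 0.0914). Ms4a3, a gene of granulocyte and monocyte progenitors, had 6.58, 6.90 and 7.16 in SOD1 G93A arrays, against 7.10, 7.94 and 8.01 in WT arrays, which overlapped (fold change -0.80, adjusted p = 0.106). Ms4a2, the beta chain of the mast cell IgE receptor, Ms4a8a, Ms4a10, Ms4a13, Ms4a15 and Ms4a18 had fold changes between -0.17 and 0.17.

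The levels of MS4A genes can vary with the cells in a sort, and in a bulk sample fewer cells of a type and less RNA per cell cannot be told apart. Lists of markers were therefore set beside the members, as counts and medians, each gene by its brightest probe set. Of 16 markers of border macrophages, 5 fell and 0 rose, with a median log2 fold change of -0.61. The mean log2 signal of these markers lay between 8.22 and 8.58 in SOD1 G93A arrays and between 8.76 and 9.07 in WT arrays. Pf4, a chemokine gene, fell by 1.0, F13a1 by 0.97 and the transcription factor gene Maf by 0.90 (adjusted p = 0.0165, 0.0306 and 0.0208), while Mgl2 and 2 defining markers, the mannose receptor gene Mrc1 and Lyve1, with -1.17, -0.71 and -0.75, did not pass. With the Gapdh covariate Pf4 had -0.59 and F13a1 -0.58, and neither passed (adjusted p = 0.184 and 0.306). Ms4a7 is often counted with these markers and was left out of the list. The part of these cells in the values of Ms4a7 was not tested.

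Of 15 monocyte markers, 5 fell and 0 rose, with a median of -0.94 (-1.20 to -0.65 with any 1 array left out). Their mean log2 signal lay between 8.98 and 9.56 in SOD1 G93A arrays and between 9.70 and 10.39 in WT arrays. Ccr2, the chemokine receptor of inflammatory monocytes, fell by 1.22 (adjusted p = 0.00391), S100a10 by 1.21, S100a6 by 1.11 and S100a4 by 1.09. Of the 15 fold changes 14 were negative. Vcan and Fn1, also monocyte markers, had -0.79 and 0.09 and did not pass (adjusted p = 0.0984 and 0.899 from limma). Among the WT arrays, replicate 1 had the lowest mean of this list (9.70) and the lowest Ms4a6c signal (9.90). Of the SOD1 G93A arrays, replicate 1 also had the lowest mean of the list (8.98) but the highest Ms4a6c signal (10.99). The part of these cells in the values of the Ms4a6 genes was not tested.

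**Figure D4:**
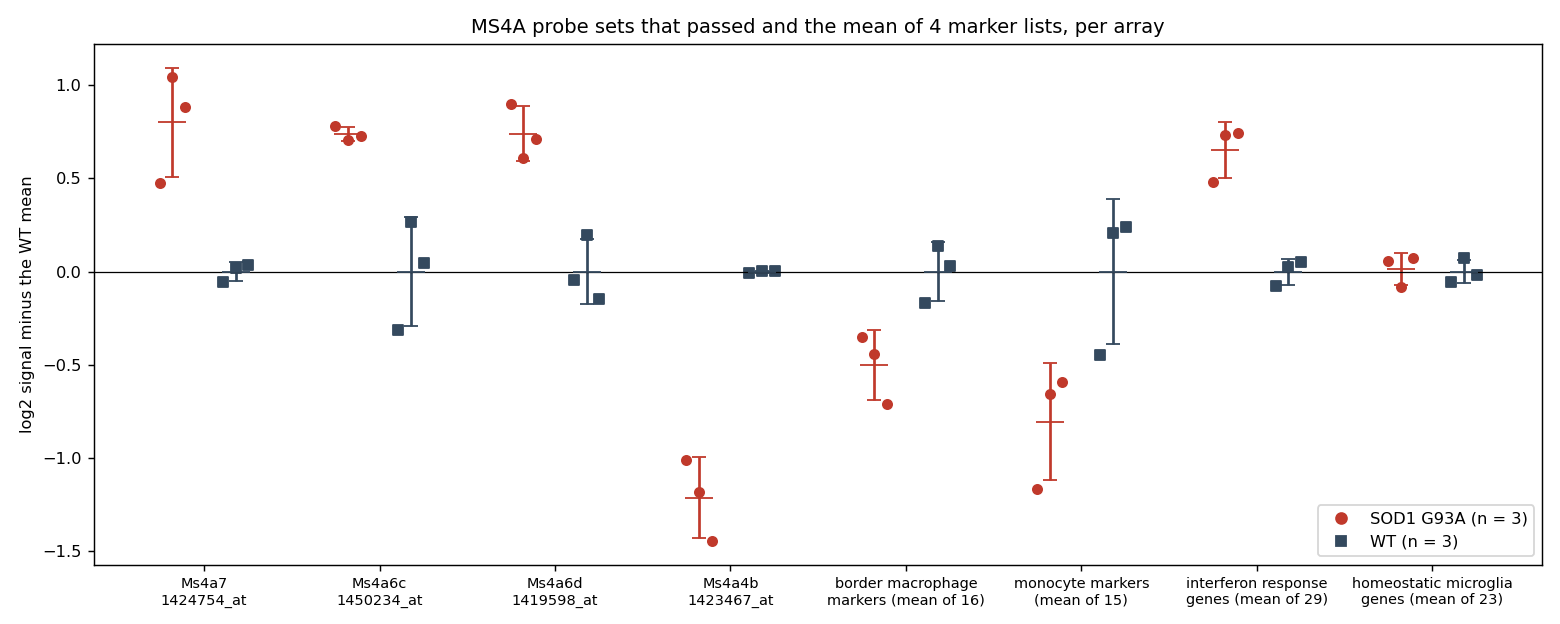
log2 signal minus the WT mean on each array for the 4 MS4A probe sets that passed and for the mean of 4 marker lists, with SOD1 G93A arrays as red circles, WT arrays as dark squares and bars for the mean and SD. Ms4a7, Ms4a6c, Ms4a6d and the interferon response list lie above the WT arrays, Ms4a4b and the border macrophage and monocyte lists below them, and the homeostatic list overlaps.

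Markers of lymphocytes were close to the receptors. Of 15 NK cell markers 13 lay below the receptors' 95th percentile, as did 9 of 15 T cell and 10 of 14 B cell markers. Klrd1, an NK cell receptor gene, was the 1 NK marker that passed, with means of 5.40 in SOD1 G93A arrays, within the receptors' range, and 7.19 in WT arrays (adjusted p = 0.0204), so that the size of its measured difference of -1.79 is uncertain, beside Gzmb (-0.52), Nkg7 (-0.43) and Ctsw (0.29). The NK list had a median fold change of 0.02, with 7 of 15 negative. Its mean log2 signal, to which Klrd1 contributes, was 4.97 to 5.04 in SOD1 G93A arrays and 5.11 to 5.21 in WT arrays. The T cell list had a median of 0.13 and a mean signal of 5.31 to 5.45 in SOD1 G93A arrays and 5.21 to 5.31 in WT arrays. Of the T cell list only Cd5 passed (0.94, adjusted p = 0.0155, with a WT mean of 5.01 within the receptors' range), and Cd3d, Cd247 and Cd3g had -0.67, 0.28 and 0.26. The B cell list had a median of 0.06. Its mean signal, to which Cd22 contributes, was 5.73 to 5.82 in SOD1 G93A and 5.51 to 5.61 in WT arrays. Its 1 member that passed was Cd22 (2.09, adjusted p = 0.00174), which microglia also express, while Cd79a and Cd79b, which form the B cell receptor, had 0.005 and -0.11, and Pax5, Vpreb3 and Spib 0.27, 0.18 and 0.17. The part of these cells in the fall of Ms4a4b was not tested.

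Of 23 microglial genes listed as homeostatic 4 rose and 4 fell, with a median of -0.04 and with 14 negative fold changes. Their mean log2 signal was 11.11 to 11.26 in SOD1 G93A and 11.14 to 11.26 in WT arrays. The list also holds Trem2 and Gpr84, which are among those that rose, so its median is not read as a measure of the homeostatic state. Trem2, the receptor whose soluble form is tied to the human MS4A cluster, rose by 1.28 (adjusted p = 0.0187), Fcrls by 1.07 and Gpr84 by 0.86, and the transcription factor gene Sall1 fell by 0.83. With the Gapdh covariate Trem2 had 0.66 (adjusted p = 0.175). Of 29 interferon response genes 13 rose and 0 fell, with a median of 0.59, and their mean log2 signal was 8.69 to 8.96 in SOD1 G93A and 8.13 to 8.27 in WT arrays. Ifit2 rose by 1.80, Bst2 by 1.51, Ifit3 by 1.45 and Mx1 by 1.34, beside fold changes of -0.12 and -0.42 for Ms4a4c. With the Gapdh covariate Ifit3 had 0.86 (adjusted p = 0.131), and of all the list genes named as changed only Cd22, S100a10 and S100a4 passed (adjusted p = 0.0436, 0.0436 and 0.0481). Of the list genes named as changed, Pf4, F13a1 and Cd5 did not pass without SOD1 G93A replicate 2 or 3 or WT replicate 2 or 3, Klrd1 and Trem2 without SOD1 G93A replicate 2 or 3 or WT replicate 3, and Sall1 without SOD1 G93A replicate 2 or 3 or WT replicate 2. S100a6 did not pass without SOD1 G93A replicate 2 or WT replicate 2 or 3, Maf without SOD1 G93A replicate 3 or WT replicate 2, and Ifit3 without SOD1 G93A replicate 2 or WT replicate 3 (adjusted p up to 0.116 among these 9 genes).

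Among 18193 genes, the 3 whose log2 signals over the 6 arrays lay closest to each of Ms4a4b, Ms4a7 and Ms4a6c were sought, by the root mean square difference after each gene was centred on its mean. Closest to Ms4a7 were Slc44a1, Abcg1 and Clic4 (0.03 to 0.05, against a median of 0.46 over all genes), with fold changes of 0.84, 0.83 and 0.87. Closest to Ms4a6c were Naca, C9orf72 and Fcer1g (0.06 to 0.08, against a median of 0.42), with 0.69, 0.71 and 0.67. Closest to Ms4a4b were S100a10, Klf9 and Ednrb (0.10 to 0.14, against a median of 0.64), with -1.21, -1.14 and -1.19 (-0.74 for Klf9 and -0.76 for Ednrb with the Gapdh covariate). Since the signal of Ms4a4b lay within the receptors' range, this ranking rests on differences near background. The likeness is over 6 arrays in 2 groups and includes the difference between the genotypes. Among fits with 1 array left out, Slc44a1, Abcg1 and Clic4 each did not pass in 4 and Naca, C9orf72 and Fcer1g each in 3. Ednrb did not pass in 1, while S100a10 and Klf9 passed in all. With the Gapdh covariate only S100a10 of these genes passed (adjusted p = 0.0436).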

How the data were processed

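RNA of CD11b-positive lumbar cells was measured on 6 Affymetrix mouse arrays. Each probe set's deposited log2 signal was made by the authors with RMA in Partek per the labels' processing notes, without versions, and the range and like medians of the arrays were checked. The paper's methods name MAS signals and detection calls, which are not used here, and describe a double amplification of RNA, whereas the labels describe the standard protocol. RMA quantile normalisation fixes the overall distribution, and amplification can weight the 3' end. The 45037 probe sets other than 64 controls entered a limma 3.58.1 fit on genotype (lmFit, eBayes; R 4.3.3). Among them, 34945 have 1 gene symbol (18193 genes), 932 several and 9160 none. The 3 arrays per genotype limit the precision. On simulated data with the measured spread, 8 of 50 probe sets changed 1.5-fold were recovered. So were 30 of 50 changed 2-fold and 49 of 50 changed 4-fold. Of 44837 unchanged probe sets 5 were called. Far fewer were changed there than the 2089 that passed in the data. The recovery rates may therefore differ in the real fit.

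The members and lists were chosen with earlier results of these data known. Named were all members, the other family genes measured, up to 4 genes per list with the largest absolute fold change, and the closest genes to 3 members. Besides these, Mrc1, Lyve1, Cd79a, Cd79b, Cx3cr1, Tmem119 and P2ry12 were named as defining markers of their cell types. Vcan, Fn1, Ms4a19 and Ms4a20 were named after their values were seen. Alternatives were t-tests (the methods' t-test has unequal variance), eBayes with trend and robust, array weights, median centring, signal minimums of 5 and 7, genes instead of probe sets, no suffixed probe sets, a replicate block, a Gapdh covariate and arrays left out. Figures and tables were made in Python 3.11.15.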

Additional observations from a re-analysis of the deposited data

How the results depend on the processing

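The 3 MS4A probe sets that rose and the 1 that fell gave the same counts with trend and robust moderation and with median-centred arrays. Counts for both t-tests are after adjustment over all probe sets, a step that the paper's methods do not describe for its selection. Before adjustment, the methods' t-test put the 3 that rose and the 1 that fell under the 0.05 limit. The 0 counts with that test therefore do not show what the study's own selection would give. Rises numbered 0 with the methods' t-test, 0 with the equal-variance t-test, 0 with the Gapdh covariate and 0 at the methods' fold threshold with an unadjusted p under 0.05, which lies just above the 1.74-fold change of Ms4a7 and the 1.67-fold changes of Ms4a6c and Ms4a6d, all of which missed it by their fold alone (4 were higher at an unadjusted p alone), and 0 to 3 with 1 array left out. Falls numbered 0 with the methods' t-test, 0 with the equal-variance t-test, 0 with the Gapdh covariate, 0 with signal minimums of 5 and of 7, which remove Ms4a4b, and 2 with array weights, with the replicate block and without both arrays numbered 1, where 1439956_at of Ms4a6b also passed (adjusted p = 0.0496, 0.0165 and 0.0366). Falls numbered 3 at an unadjusted p under 0.05, and 1 (Ms4a4b) when the methods' fold threshold was added. They numbered 1 with any 1 array left out. Over all 45037 probe sets 2089 passed, against 3549 with array weights. After the same adjustment 0 passed with the methods' t-test and 13 with the equal-variance t-test. Of 18193 genes, 1342 passed with 1 probe set per gene and 1255 with the mean of the probe sets of a gene. Without suffixed probe sets 1315 of 36082 passed. The number was 4519 with the replicate block, 129 with the Gapdh covariate and 3796 without both arrays numbered 1. It was 8767 at an unadjusted p, 1081 at the methods' fold threshold and 479 to 2195 with 1 array left out. The arrays' numbers are not known to pair them, and the deviations of same-numbered arrays correlated at 0.44, 0.24 and 0.03, with the third array of each genotype closest to the second of the other.

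Some fold changes that did not pass changed sign, all of them small, and the cause was not tested. Without both arrays numbered 1 the values were 0.034 and -0.063 for 1423226_at and 1450912_at of Ms4a1, 0.0055 for 1425325_at of Ms4a4b, 0.010 for Ms4a4d, -0.20 for 1418826_at of Ms4a6b and 0.12 for 1457725_at of Ms4a6c. With array weights they were 0.017 for 1423226_at, -0.096 for 1418826_at and 0.052 for 1457725_at, and with the Gapdh covariate 0.16 for Ms4a4d, 0.19 for 1457725_at and -0.021 for 1449539_at of Ms4a6d. With 1 array left out they ranged from -0.13 to 0.0044 for 1423226_at, -0.045 to 0.32 for 1450912_at, -0.085 to 0.076 for Ms4a4d, -0.14 to 0.14 for 1418826_at and -0.17 to 0.12 for 1457725_at. The other 11 MS4A probe sets kept their direction with 1 array left out. Signals near background limit what can be read for Ms4a1, Ms4a4b and Ms4a4d.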

Other observations

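Ms4a19 and Ms4a20, members of the cluster outside the lists, had mean log2 signals of 2.84 and 2.88 in SOD1 G93A and 2.80 and 2.77 in WT arrays, within the receptors' range, with fold changes of 0.04 and 0.10 that did not pass (adjusted p = 0.942 and 0.717 from limma).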
